A study of Chlorocebus sabaeus with 32 samples.

Results

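The AMPA receptor genes of the hippocampus were followed in 32 RNA sequencing libraries of the vervet (Chlorocebus sabaeus), an African green monkey used in research, in a series made to examine how the hippocampal transcriptome changes during development. The gene set was a named list of 9 symbols: the pore-forming subunits GRIA1, GRIA2, GRIA3 and GRIA4, the transmembrane auxiliary subunits CACNG2, CACNG3 and CACNG8, and the cornichons CNIH2 and CNIH3. Of these, 8 were analysed here, out of 33994 gene rows in all, and GRIA3 was not analysed here. The 8 were taken by name, with no cut on their measured values, but the list was chosen with earlier results of these data known.

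Every library was labelled as hippocampus of an animal under 1 year of age, and no genotype, treatment, sex, exact age or batch was given. The first 4 digits of the titles made 3 sets, called here the prefix-2010 set (16 libraries), the prefix-2009 set (14) and the prefix-2011 set (2). The titles went on with the letters VMT and a number, which was above 20000 in 11 libraries, called high here, and below it in the other 21, called low. The prefix-2010 set held 9 high and 7 low numbers, the prefix-2009 set low numbers only and the prefix-2011 set high numbers only. The labels do not say what prefix or number stands for, and a difference between prefixes cannot be told apart from anything else that differed between them. Each title carries its own identifier, but nothing else says that the libraries came from separate animals, so p-values measure the spread between these libraries.

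AMPA receptors are glutamate-gated ion channels that carry most fast excitatory transmission in the brain, and each channel is an assembly of GluA subunits encoded by the GRIA genes. Edited GluA2, the product of GRIA2, makes the channel nearly impermeable to calcium, and the enzyme encoded by ADARB1 performs that editing. In rodents, GluA1 and GluA2 dominate in hippocampal pyramidal cells, whereas GluA4 is known from interneurons and from early postnatal pyramidal cells. The proteins encoded by CACNG2 (stargazin), CACNG3 and CACNG8 bring the receptor to the cell surface, hold it at the postsynaptic scaffold and slow its gating. CACNG8 is the prominent member of that family in the rodent hippocampus. Cornichons, encoded by CNIH2 and CNIH3, act in export from the endoplasmic reticulum and also slow gating.

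Between 9347635 and 19673621 reads per library were assigned to genes. CACNG2, the measured gene of the set with the lowest median read count, had 140 to 450 reads per library. Values are counts relative to library size after trimmed mean scaling (CPM), with no division by transcript length, so levels were not ranked between genes. Markers of the labelled tissue were present in every library. SLC17A7, the vesicular glutamate transporter of cortical and hippocampal excitatory neurons and so not particular to hippocampus, ran from 242 to 839 CPM. PROX1, the transcription factor of dentate granule cells, ran from 19.8 to 187 CPM.

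A pair of libraries, library 2 of the prefix-2010 set and library 1 of the prefix-2009 set, stood apart in granule cell markers. Their marker score, the mean z-scored log2 CPM of the 4 of 6 markers that passed the count filter, was -2.42 in library 2 of the prefix-2010 set and -2.73 in library 1 of the prefix-2009 set, and the next lowest library had -0.836. The 6 markers summed to 159 CPM in library 2 of the prefix-2010 set and 182 CPM in library 1 of the prefix-2009 set, against 315 to 651 CPM in the other 30, and none of the 6 was at 0 in either library. Markers of hippocampal excitatory neurons summed to 1875 CPM in library 2 of the prefix-2010 set and 1808 CPM in library 1 of the prefix-2009 set, against 1978 to 4304 CPM in the other 30. Markers of striatum and thalamus summed to 969 CPM in library 2 of the prefix-2010 set, against 79.0 to 346 CPM in the other 30. Library 1 of the prefix-2009 set had the fewest gene counts, 9347635, and the largest share of reads in no gene feature, 67.1%. What set these libraries apart was not tested, and results that rest on them are given with and without them.

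GRIA1, encoding the GluA1 subunit, fell into a narrow band in 30 libraries and far below it in the pair low in granule markers. It had 582, 1225 and 1378 CPM as the lowest, median and highest of the 16 libraries of the prefix-2010 set, against 294, 1229 and 1458 CPM in the 14 of the prefix-2009 set. Both lowest values belonged to the pair that stood apart. The other 30 libraries ran from 935 to 1458 CPM, so the medians of the prefixes were close and their ranges overlapped almost fully. GRIA1 averaged 1160 ± 207 CPM in the prefix-2010 set and 1191 ± 280 CPM in the prefix-2009 set (SD, n = 16 and 14). The difference was -0.03 ± 0.13 on the log2 scale (± SE throughout) and did not pass edgeR's quasi-likelihood test (Benjamini-Hochberg adjusted p = 0.911). In RNA from whole tissue, fewer cells of a type and less RNA per cell cannot be told apart.

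GRIA2, encoding the subunit whose editing sets calcium permeability, was also lowest in the pair low in granule markers, with a smaller drop. Its lowest, median and highest values were 955, 1402 and 1660 CPM in the prefix-2010 set, against 731, 1358 and 1751 CPM in the prefix-2009 set. The other 30 libraries lay between 1091 and 1751 CPM. Mean levels were 1354 ± 184 CPM in the prefix-2010 set and 1367 ± 241 CPM in the prefix-2009 set, a log2 difference of -0.01 ± 0.08 (edgeR adjusted p = 0.966).

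GRIA4, encoding GluA4, went the other way in that pair, being among the highest rather than the lowest. Library 2 of the prefix-2010 set had 86.7 CPM and library 1 of the prefix-2009 set had 101 CPM, against 49.4 to 91.3 CPM in the other 30. By prefix, the lowest, median and highest values were 67.8, 77.7 and 91.3 CPM in the prefix-2010 set, against 49.4, 72.4 and 101 CPM in the prefix-2009 set. The prefix-2009 set thus spanned the whole range of the prefix-2010 set. The mean was 77.8 ± 6.67 CPM in the prefix-2010 set and 70.9 ± 12.9 CPM in the prefix-2009 set, and the log2 difference of 0.14 ± 0.07 did not pass (edgeR adjusted p = 0.209). Without library 1 of the prefix-2009 set the difference was 0.19 and passed (edgeR adjusted p = 0.0342), and without both libraries of the pair it was 0.17 and did not (edgeR adjusted p = 0.0535). In the 2 libraries of the prefix-2011 set, GRIA4 had 73.6 and 73.9 CPM, GRIA1 1070 and 1335 CPM, and GRIA2 1453 and 1649 CPM.

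**Figure D1:**
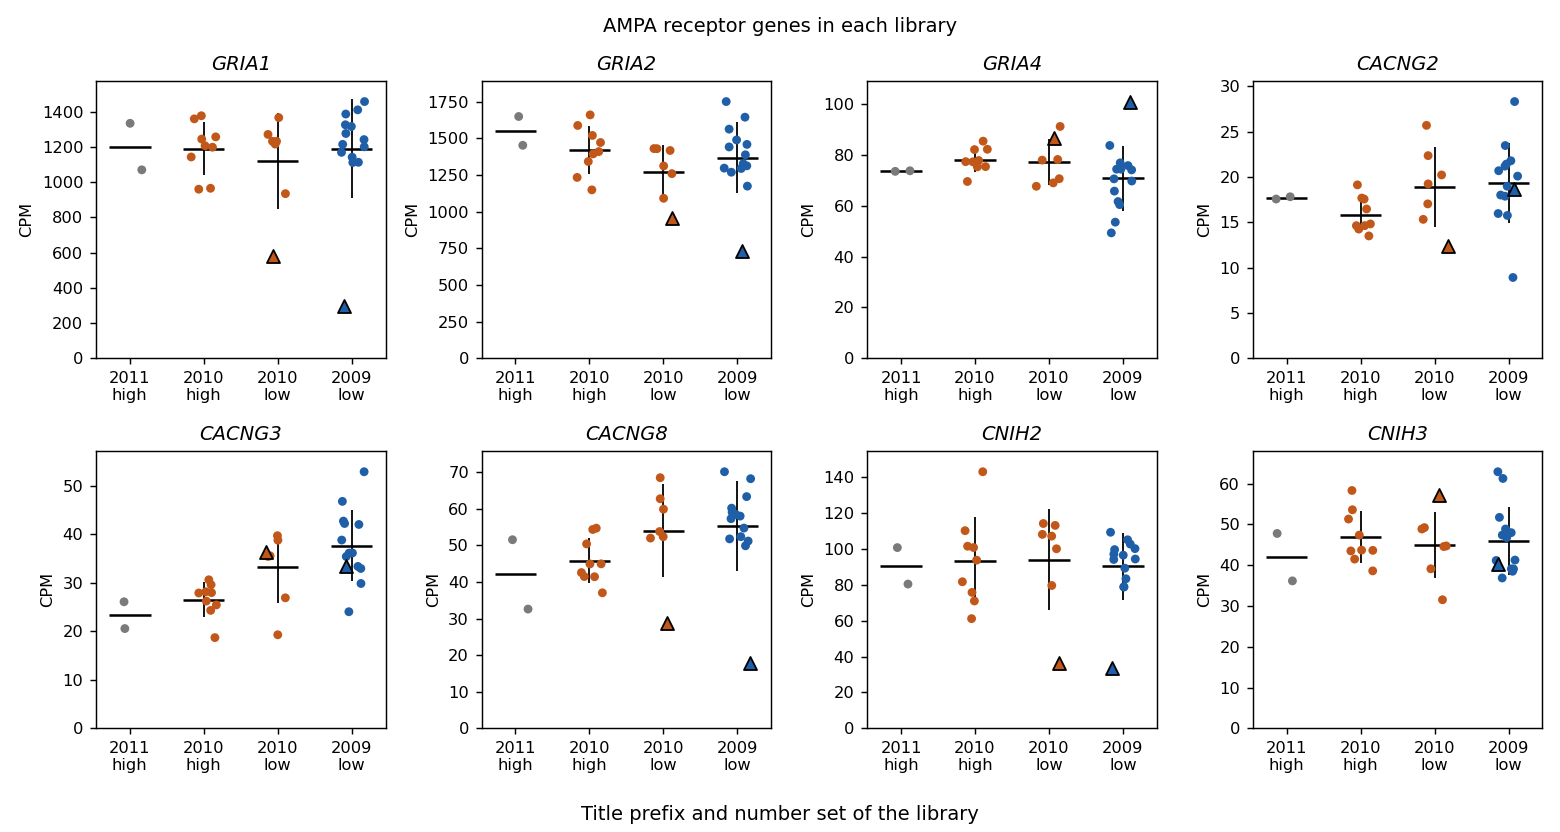
CPM of the 8 measured AMPA receptor genes (vertical axes, starting at 0) in each library, grouped by title prefix and by high or low title number along the horizontal axis. Points are libraries, horizontal bars means and vertical bars SDs, and outlined triangles mark the pair of libraries low in granule markers. The triangles lie below all other points for GRIA1, GRIA2, CACNG8 and CNIH2, and CACNG3 is the gene whose prefix-2010 libraries lie lowest against those of the prefix-2009 set.

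Among the auxiliary subunits, CACNG3 was the gene that differed between prefixes. Its lowest, median and highest values were 18.7, 28.1 and 39.8 CPM in the prefix-2010 set, against 24.1, 36.2 and 52.9 CPM in the prefix-2009 set. The ranges overlapped, but the median of the prefix-2010 set lay below 13 of the 14 libraries of the prefix-2009 set. CACNG3 averaged 29.5 ± 6.33 CPM in the prefix-2010 set and 37.7 ± 7.33 CPM in the prefix-2009 set (SD, n = 16 and 14), and the log2 difference of -0.35 ± 0.10 passed edgeR's test (adjusted p = 0.0249). It also passed without the pair low in granule markers, at -0.39 (edgeR adjusted p = 0.0127). CACNG3 was thus 1 of the 8 genes called between prefixes, against 12.5% of the 23977 genes tested that were called in either direction (2987 genes). The median log2 difference was -0.02 over the 8 genes and 0.01 over all genes.

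When the prefixes were compared among low numbers alone, the CACNG3 difference was smaller and not called. The 7 libraries of the prefix-2010 set with low numbers had 19.3, 35.6 and 39.8 CPM as lowest, median and highest, against the 24.1, 36.2 and 52.9 CPM of the prefix-2009 set, whose numbers were all low. The medians of these sets were nearly equal. The log2 difference was -0.17 ± 0.12 (edgeR adjusted p = 0.430). None of the 8 genes passed in this comparison in edgeR, where 5.54% of all genes did, and none reached an unadjusted p under 0.05 or passed in DESeq2.

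Within the prefix-2010 set, the 9 libraries with high numbers had 18.7, 27.9 and 30.7 CPM of CACNG3 as lowest, median and highest, against 19.3, 35.6 and 39.8 CPM in the 7 with low numbers. Values of the high numbers lay at or below 30.7 CPM, and 5 of the 7 low-number libraries lay above that. The log2 difference was -0.33 ± 0.13, with an edgeR p of 0.0213 that did not pass after adjustment (adjusted p = 0.320). No gene of the 8 passed between number sets in edgeR or in DESeq2, and CACNG3 was the one at an unadjusted p under 0.05. The background was 0.00% in edgeR, with 2930 of 23977 genes at an unadjusted p under 0.05, and DESeq2 called 109 genes. In the prefix-2011 set, whose numbers were all high, CACNG3 had 20.6 and 26.1 CPM.

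Markers of other cells and of hippocampal neurons differed between the prefixes beside CACNG3. Of 11 measured markers of immature neurons, such as DCX and SOX11, 9 rose in the prefix-2010 set and none fell, and their sum ran from 1120.0 to 2672 CPM in the prefix-2010 set and from 997 to 1784 CPM in the prefix-2009 set. Of 8 markers of oligodendrocyte precursors, such as PDGFRA, 5 rose and none fell, with sums of 1274 to 2015 CPM in the prefix-2010 set and 992 to 1816 CPM in the prefix-2009 set. Of 7 markers of striatum and thalamus, 4 rose and none fell, with sums of 95.5 to 969 CPM in the prefix-2010 set and 79.0 to 149 CPM in the prefix-2009 set. Of 8 markers of hippocampal excitatory neurons, 2 fell in the prefix-2010 set, as CACNG3 did, and none rose. These were SLC17A7 (log2 difference -0.55 ± 0.14, edgeR adjusted p = 0.00953) and CAMK2A, a postsynaptic kinase (-0.37 ± 0.11, edgeR adjusted p = 0.0255). The 8 summed to 1875 to 3776 CPM in the prefix-2010 set and 1808 to 4304 CPM in the prefix-2009 set, with means of 2846 and 3602 CPM. Of that sum, CAMK2A averaged 1914 CPM in the prefix-2010 set and 2486 CPM in the prefix-2009 set, and SLC17A7 445 and 655 CPM. The median log2 difference over the 8 was 0.03, so the lower sum does not stand for the whole list. In the other lists with calls, 2 of 14 markers of mature myelin and 1 of 6 of dentate granule cells fell, while 2 of 8 of inhibitory neurons, 2 of 6 of microglia and 1 of 8 of mural cells and fibroblasts rose. Over all genes, 12.5% were called in either direction. The 6 microglia markers had a median log2 difference of -0.04, with mean sums of 200 CPM in the prefix-2010 set and 218 CPM in the prefix-2009 set. No listed marker with a row was at 0 in every library, and the part of these markers in the CACNG3 difference was not tested.

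CACNG8, encoding the auxiliary subunit best known from the rodent hippocampus, had 28.9, 51.2 and 68.5 CPM as lowest, median and highest in the prefix-2010 set, against 17.97, 57.7 and 70.2 CPM in the prefix-2009 set. Both minima were in the pair low in granule markers, and the other 30 libraries ran from 32.6 to 70.2 CPM. Its mean was 49.4 ± 10.1 CPM in the prefix-2010 set and 55.2 ± 12.3 CPM in the prefix-2009 set, a log2 difference of -0.16 ± 0.12 (edgeR adjusted p = 0.438). Between number sets of the prefix-2010 set it averaged 45.8 ± 6.12 CPM in high numbers and 54.0 ± 12.7 CPM in low numbers (n = 9 and 7), a log2 difference of -0.24 ± 0.16 (edgeR adjusted p = 0.550). Without the pair, that difference was -0.35 and still did not pass (edgeR adjusted p = 0.0765).

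CACNG2, encoding stargazin, had 12.4, 16.8 and 25.7 CPM as lowest, median and highest in the prefix-2010 set, against 8.91, 19.5 and 28.3 CPM in the prefix-2009 set. Library 5 of the prefix-2009 set held the lowest value and library 9 of the prefix-2009 set the highest, so the pair low in granule markers did not set its range. The mean was 17.2 ± 3.51 CPM in the prefix-2010 set and 19.4 ± 4.40 CPM in the prefix-2009 set, and the log2 difference of -0.17 ± 0.11 did not pass (edgeR adjusted p = 0.336).

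The cornichons had nearly equal means in both prefixes. CNIH2 had 36.4, 100.4 and 143 CPM as lowest, median and highest in the prefix-2010 set, against 33.6, 95.4 and 109 CPM in the prefix-2009 set. Both minima again belonged to the pair, and the other 30 libraries lay between 61.1 and 143 CPM. Its log2 difference was 0.06 ± 0.13 (edgeR adjusted p = 0.829). CNIH3 had 31.5, 44.7 and 58.3 CPM in the prefix-2010 set, against 36.9, 44.0 and 62.9 CPM in the prefix-2009 set. Its values in the pair, 57.1 CPM in library 2 of the prefix-2010 set and 40.3 CPM in library 1 of the prefix-2009 set, lay inside the range of the other 30. The log2 difference of CNIH3 was 0.01 ± 0.08 (edgeR adjusted p = 0.966).

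No exact age was available, so each gene was also fitted against a score of immature neurons, the mean z-scored log2 CPM of 11 markers, and against a score of mature myelin over 14 markers. CACNG3 fell with the immature neuron score, by 0.25 ± 0.05 on the log2 scale per SD of the score over the 32 libraries (edgeR adjusted p = 6.75e-05). The other 7 genes did not pass, with slopes between -0.06 for CACNG8 and 0.08 for GRIA1. A share of 32.1% of the 19948 genes tested passed in either direction (6398 genes), against 1 of 8 here, and the median slope was -0.02 over the 8 genes and 0.00 over all genes. Without the pair low in granule markers CACNG8 passed as well, at -0.11 (edgeR adjusted p = 0.0271), while CACNG3 was at -0.25. With the title prefix in the model, the CACNG3 slope was -0.22 and no longer passed (edgeR adjusted p = 0.0627).

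Fitted within each prefix, the CACNG3 slope was -0.19 ± 0.09 in the prefix-2010 set (edgeR adjusted p = 0.241) and -0.36 ± 0.15 in the prefix-2009 set (edgeR adjusted p = 0.223). The difference between these slopes was 0.17 ± 0.18 and did not pass (edgeR adjusted p = 0.791). None of the 8 genes passed that test of a difference in edgeR or DESeq2 and none reached an unadjusted p under 0.05. Across all 20026 genes the background was 0.00%, with 1471 at an unadjusted p under 0.05 and none called by DESeq2.

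On the mature myelin score none of the 8 genes passed in edgeR or DESeq2, where 5.28% of 19945 genes did in edgeR. None reached an unadjusted p under 0.05 in edgeR and 1 did in DESeq2. The slope farthest from 0 was again that of CACNG3, 0.12 ± 0.06 (edgeR adjusted p = 0.261), and the median was 0.04 over the 8 genes and 0.00 over all genes.

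**Figure D2:**
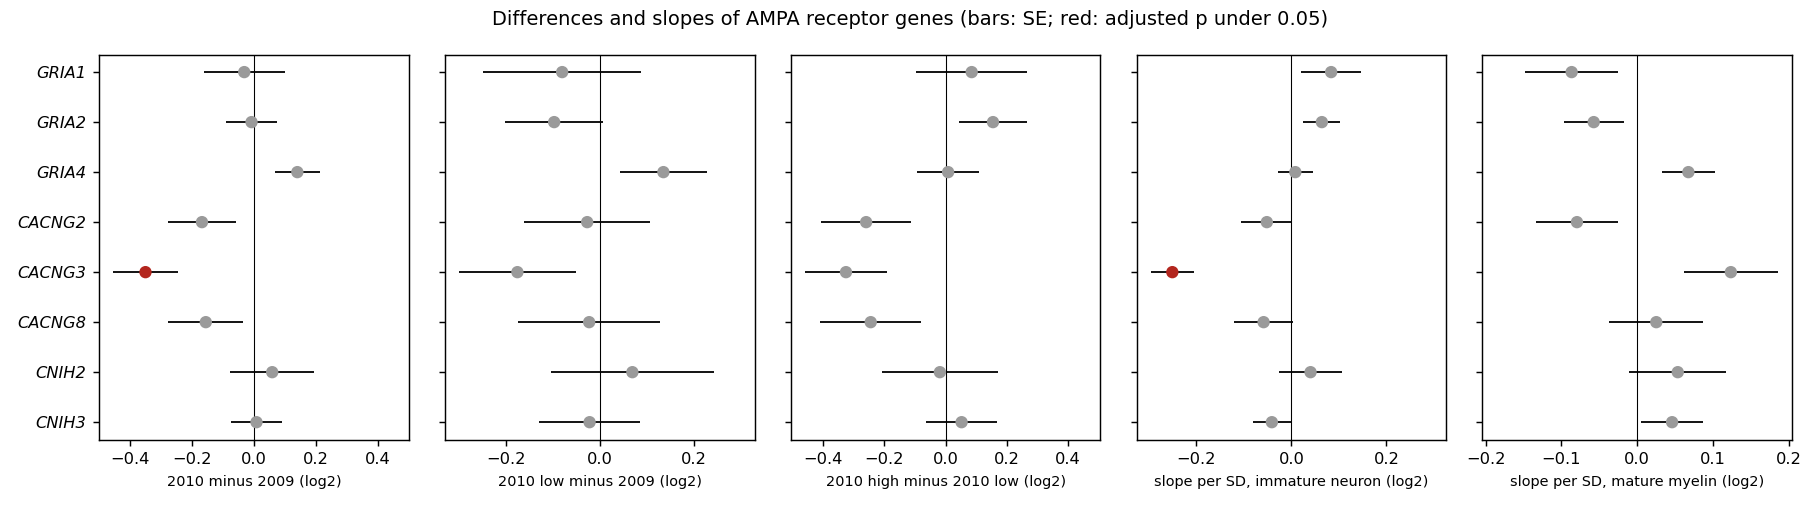
Log2 differences and slopes of the 8 genes (rows) in 5 comparisons (panels), each with its SE as a horizontal bar and on its own horizontal scale. Red points had an adjusted p under 0.05 in edgeR: CACNG3 in the prefix-2010 minus prefix-2009 panel (-0.35) and in the slope on the immature neuron score (-0.25), and no gene in the other panels.

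Of 42 genes of the wider AMPA receptor pathway, 5 were called between prefixes (11.9%), a share near the 12.5% called over all genes. Of 17 other auxiliary and assembly proteins, 1 rose in the prefix-2010 set and none fell, with a median log2 difference of -0.06. That gene was CACNG4, a further member of the stargazin family known in rodents from developing brain, which averaged 42.4 ± 12.7 CPM in the prefix-2010 set and 30.3 ± 7.27 CPM in the prefix-2009 set (log2 difference 0.49 ± 0.14, edgeR adjusted p = 0.0164). Among low numbers alone, where 5.54% of all genes were called, its difference was 0.78 ± 0.14 (edgeR adjusted p = 0.00337). CACNG3 and CACNG4 are relatives in 1 gene family, and their differences between prefixes had opposite signs.

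Of 15 trafficking and anchoring proteins, 1 rose and 1 fell in the prefix-2010 set, with a median of 0.01. GRIP2, a scaffold that binds the tail of GluA2, averaged 36.9 ± 6.44 CPM in the prefix-2010 set and 30.8 ± 4.18 CPM in the prefix-2009 set (0.27 ± 0.08, edgeR adjusted p = 0.0266). NSF, an ATPase of membrane fusion that also binds GluA2, averaged 715 ± 164 CPM in the prefix-2010 set and 954 ± 202 CPM in the prefix-2009 set (-0.41 ± 0.12, edgeR adjusted p = 0.0206). Among low numbers alone GRIP2 differed by 0.37 ± 0.10 (edgeR adjusted p = 0.0239) and NSF by -0.51 ± 0.15 (edgeR adjusted p = 0.0436). That GRIP2 call was lost when library 1 or library 2 of the prefix-2010 set was left out (edgeR adjusted p = 0.0635 and 0.0710), and that NSF call with any of 14 of the 21 libraries left out (edgeR adjusted p of 0.0506 to 0.0953).

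None of 7 synaptic clustering proteins passed between prefixes in edgeR, with 2 at an unadjusted p under 0.05 and a median of -0.07. Of the 3 genes listed under RNA editing, which were ADAR, ADARB1 and ADARB2, the first 2 fell, where 12.5% of all genes were called in either direction. ADARB1, whose product edits the GRIA2 transcript, averaged 66.1 ± 13.2 CPM in the prefix-2010 set and 86.4 ± 19.7 CPM in the prefix-2009 set (-0.38 ± 0.11, edgeR adjusted p = 0.0181). ADAR, which encodes a further RNA editing enzyme, averaged 212 ± 18.6 CPM in the prefix-2010 set and 235 ± 14.8 CPM in the prefix-2009 set (-0.14 ± 0.04, edgeR adjusted p = 0.0236). Gene counts do not measure editing itself. Among low numbers alone no clustering or editing gene passed in edgeR, with 1 of 7 and 0 of 3 at an unadjusted p under 0.05.

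Along the immature neuron score more of these genes were called, in a comparison where 32.1% of all genes were. Of the 17 auxiliary and assembly proteins 1 rose and 4 fell, with a median slope of -0.02. CACNG4 rose (0.19 ± 0.07, edgeR adjusted p = 0.0336). PRRT1, also known as SynDIG4, fell by 0.24 per SD (SE 0.06, edgeR adjusted p = 0.00131), and GSG1L, a further auxiliary subunit, fell by 0.27 (SE 0.08, edgeR adjusted p = 0.00699). FRRS1L, an assembly factor of the endoplasmic reticulum, fell by 0.11 (edgeR adjusted p = 0.0110), as did SHISA7, a transmembrane receptor partner, by 0.13 (edgeR adjusted p = 0.0260). The CACNG4 call was lost without library 2 or 3 of the prefix-2009 set or library 11, 12 or 15 of the prefix-2010 set (edgeR adjusted p of up to 0.0851), and that of SHISA7 without library 15 of the prefix-2010 set (edgeR adjusted p = 0.0750).

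Of the 15 trafficking and anchoring proteins 3 rose and 3 fell along the score, with a median of -0.01. The scaffold GRIP1 rose (0.13 ± 0.03, edgeR adjusted p = 0.000159), as did GRIP2 (0.11 ± 0.04, edgeR adjusted p = 0.0276) and RAB11A, a GTPase of recycling endosomes (0.10 ± 0.04, edgeR adjusted p = 0.0230). EPB41L1, a cytoskeletal linker that binds GluA1, fell by 0.17 (edgeR adjusted p = 0.000168), DLG4, the main postsynaptic scaffold, by 0.10 (edgeR adjusted p = 0.00275), and NSF by 0.21 (edgeR adjusted p = 0.00794). Leaving out library 15 of the prefix-2010 set ended the GRIP2 call (edgeR adjusted p = 0.0538), and leaving out library 1 of the prefix-2009 set or library 1 of the prefix-2011 set ended that of RAB11A (edgeR adjusted p = 0.0584 and 0.0545).

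Among the 7 clustering proteins 2 rose and 1 fell, with a median of -0.08. Those that rose were the postsynaptic adhesion proteins LRRTM2 (0.09 ± 0.03, edgeR adjusted p = 0.0233) and NLGN1 (0.08 ± 0.03, edgeR adjusted p = 0.0264). LRRTM4, an adhesion protein of the same family as LRRTM2, fell by 0.13 (edgeR adjusted p = 0.00699). NLGN1 lost its call without library 1 of the prefix-2009 set (edgeR adjusted p = 0.0617), and LRRTM2 without that library or library 11 or 14 of the prefix-2010 set (edgeR adjusted p of 0.0528 to 0.0543). Both editing enzymes that fell in the prefix-2010 set also fell along the score, ADAR by 0.10 (edgeR adjusted p = 0.000233) and ADARB1 by 0.18 (edgeR adjusted p = 0.00953). With the prefix in the model, 12 of these 16 calls did not pass, and EPB41L1, GRIP1, LRRTM4 and NLGN1 did. The slopes of 5 of the 12 were farther from 0 than without the prefix (GSG1L -0.33, PRRT1 -0.27, SHISA7 -0.14, RAB11A 0.14 and LRRTM2 0.13), and those of 7 were nearer to 0, such as NSF (-0.07) and FRRS1L (-0.04). On the mature myelin score none of the 42 genes of these lists passed in edgeR, with 7 at an unadjusted p under 0.05. None passed between number sets (7 at an unadjusted p under 0.05) or in the difference of slopes (3 at an unadjusted p under 0.05).

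The make-up of each subunit family was compared as a share of the family's own counts, a ratio within a library that needs no scaling but depends on transcript length. GRIA2 made up 52.4% ± 2.32 of GRIA1, GRIA2 and GRIA4 counts in the prefix-2010 set and 52.5% ± 3.98 in the prefix-2009 set, and GRIA4 3.10% ± 0.786 in the prefix-2010 set and 2.99% ± 1.79 in the prefix-2009 set. CACNG8 was 51.2% ± 4.35 of CACNG2, CACNG3 and CACNG8 counts in the prefix-2010 set and 48.6% ± 7.50 in the prefix-2009 set. CNIH3 was 34.1% ± 9.49 of both cornichons in the prefix-2010 set and 34.4% ± 7.74 in the prefix-2009 set. None of the 12 comparisons of 4 shares between prefixes and number sets passed a two-sided permutation test (each adjusted p = 0.949), so no difference in make-up was detectable against this spread.

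The largest deviations in make-up were again in the pair low in granule markers. GRIA2 was 58.8% of the GRIA counts in library 2 of the prefix-2010 set and 64.9% in library 1 of the prefix-2009 set, against 49.3% to 55.9% in the other 30. GRIA4 was 5.34% in library 2 of the prefix-2010 set and 8.98% in library 1 of the prefix-2009 set, against 1.77% to 4.31%. CACNG8 was 37.1% and CNIH3 61.1% of their families in library 2 of the prefix-2010 set, and 25.6% and 54.5% in library 1 of the prefix-2009 set, against 45.6% to 58.0% and 21.3% to 45.7% in the other 30. Without the pair, GRIA2 made up 52.8% ± 1.38 in high numbers and 50.7% ± 1.14 in low numbers of the prefix-2010 set. That difference of 2.04 points had an exact permutation p of 0.0110 and did not pass over the 12 comparisons (adjusted p = 0.132). Also without the pair, GRIA4 made up 2.95% ± 0.530 in the prefix-2010 set and 2.53% ± 0.507 in the prefix-2009 set. That difference of 0.42 points had a permutation p of 0.0397 and did not pass either (adjusted p = 0.238).

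Across libraries, GRIA1 and GRIA2 varied together and GRIA4 varied against them. The log2 CPM of GRIA1 and GRIA2 correlated with Pearson's r = 0.88 and Spearman's rho = 0.77 over 32 libraries (permutation p = 1e-05 for each, the smallest that 100000 resamples can give, and adjusted p = 3e-05 over 3 pairs). Within the prefix-2010 set r was 0.88 and within the prefix-2009 set 0.91. The pair low in granule markers also held the 2 libraries farthest from the median of GRIA1, and without it r was 0.75 (permutation adjusted p = 3e-05). It was then 0.82 in the prefix-2010 set and 0.76 in the prefix-2009 set.

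GRIA1 and GRIA4 correlated with r = -0.63 and rho = -0.61 (permutation adjusted p = 0.000555 and 0.000405), with r = -0.64 within the prefix-2010 set and -0.69 within the prefix-2009 set. Without the pair, r was -0.49 and still passed (permutation adjusted p = 0.00889), with -0.62 in the prefix-2010 set and -0.41 in the prefix-2009 set. GRIA2 and GRIA4 gave r = -0.57 and rho = -0.49 (permutation adjusted p = 0.00102 and 0.00514), with -0.52 within the prefix-2010 set and -0.68 within the prefix-2009 set. Without the pair this relation was weaker, at r = -0.34, and did not pass (permutation adjusted p = 0.0641). It was then -0.38 in the prefix-2010 set and -0.37 in the prefix-2009 set.

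**Figure D3:**
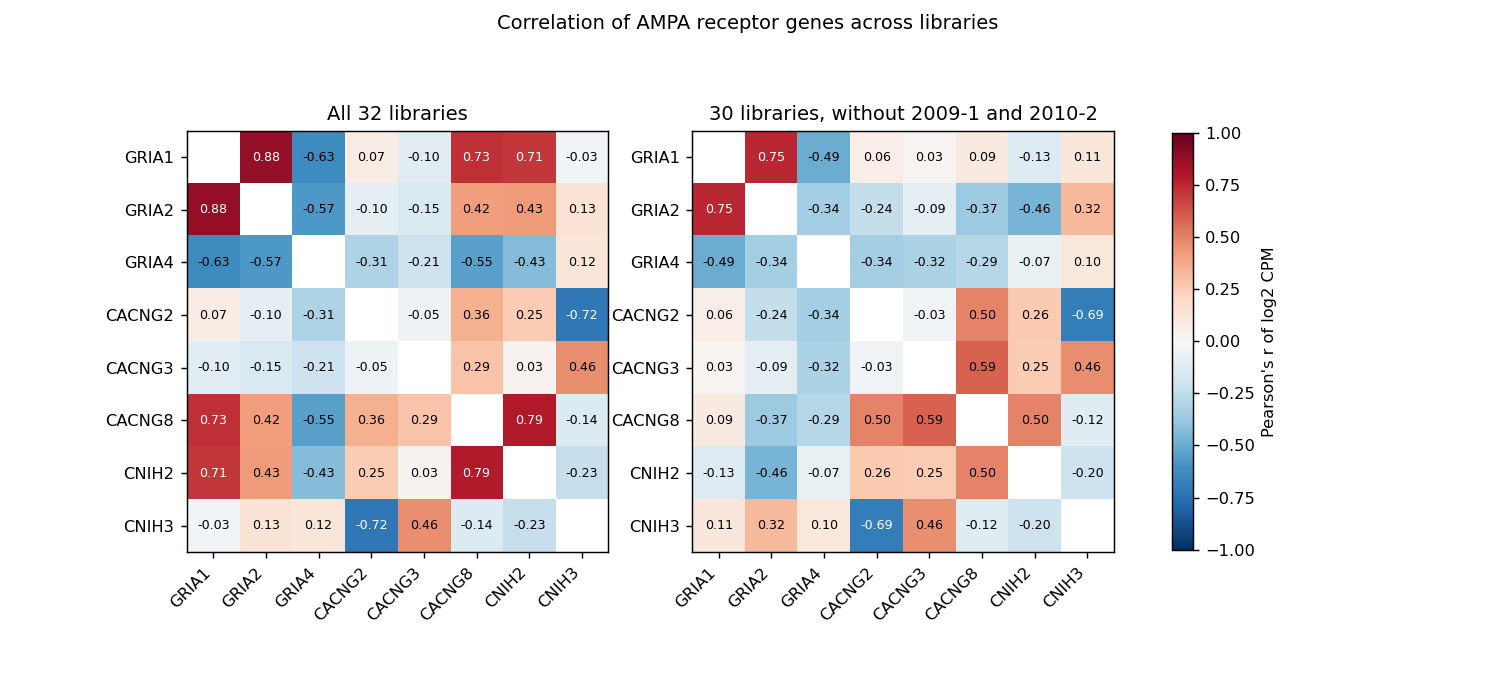
Pearson's r of log2 CPM between the 8 genes (rows and columns), over all 32 libraries (left) and over 30 libraries without library 2 of the prefix-2010 set and library 1 of the prefix-2009 set (right), on a colour scale from -1 to 1. GRIA1 with CACNG8 goes to 0.09 without the pair, against 0.73 with it, while CACNG2 with CNIH3 stands at -0.69 without it and -0.72 with it.

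All 28 pairs of the 8 genes were computed, and 10 passed by Pearson's r, 7 by Spearman's rho and 8 by r without the pair of libraries, with 5 passing by r both with and without it. The share of other gene pairs that would pass was not computed. CACNG2 and CNIH3 went in opposite directions: r was -0.72 and rho -0.68 (permutation adjusted p = 0.00014 and 0.00056 over 28 pairs). With the pair of libraries in, r was -0.78 within the prefix-2010 set and -0.75 within the prefix-2009 set. Without the pair r was -0.69, with -0.74 in the prefix-2010 set and -0.75 in the prefix-2009 set. Without the 2 libraries farthest in CACNG2 it was -0.68. CACNG8 and CNIH2 rose and fell together, with r = 0.79 and rho = 0.60 (permutation adjusted p = 0.000187 and 0.00185). With the pair in, r was 0.74 within the prefix-2010 set and 0.96 within the prefix-2009 set. Without the pair r was 0.50 over both (permutation adjusted p = 0.0277), 0.53 in the prefix-2010 set and 0.71 in the prefix-2009 set.

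CACNG3 and CNIH3 correlated with r = 0.46 and rho = 0.39 (permutation adjusted p = 0.0227 and 0.0743). With the pair in, r was 0.47 within the prefix-2010 set and 0.58 within the prefix-2009 set. Without the pair it was 0.46, with 0.40 in the prefix-2010 set and 0.58 in the prefix-2009 set. Without the 2 libraries farthest in CACNG3 it was 0.39. Other relations rested on the pair. GRIA1 correlated with CACNG8 at r = 0.73 and with CNIH2 at r = 0.71 (permutation adjusted p = 0.00297 and 0.00552), but rho was 0.22 and 0.05, and without the pair r was 0.09 and -0.13. Conversely, CACNG3 with CACNG8 stood at r = 0.29 over all libraries (permutation adjusted p = 0.214) and at 0.59 without the pair (permutation adjusted p = 0.00513), with 0.63 in the prefix-2010 set and -0.08 in the prefix-2009 set then. CACNG2 with CACNG8 had r = 0.36 over all libraries and 0.50 without the pair (permutation adjusted p = 0.101 and 0.0277), and GRIA2 with CNIH2 had 0.43 and -0.46 (permutation adjusted p = 0.0570 and 0.0369).

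Each gene was then set against scores of 12 marker lists, 96 relations in all, of which 21 passed by r, 23 by rho and 18 by r without the pair of libraries, with 13 passing by r both ways. Genes and scores share library and depth, and the share of all genes that would pass was not computed. GRIA1 followed the dentate granule score with r = 0.79 and rho = 0.45 (permutation adjusted p = 0.00096 and 0.0449 over 96 relations), but without the pair r was 0.29 and did not pass (permutation adjusted p = 0.264). GRIA2 went likewise, with r = 0.60 over all libraries and 0.01 without the pair. Neither relation passed by r without those libraries, although rho of GRIA1 passed with them in.

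CACNG8 had r = 0.82 and rho = 0.63 with the granule score (permutation adjusted p = 0.00032 and 0.00261), and r = 0.57 without the pair still passed (permutation adjusted p = 0.00686). It was 0.76 within the prefix-2010 set and 0.88 within the prefix-2009 set with the pair in, and 0.56 in the prefix-2010 set and 0.38 in the prefix-2009 set without it. CNIH2 followed the score of hippocampal excitatory neurons, which includes CAMK2A and NEUROD6, with r = 0.88 and rho = 0.67 (permutation adjusted p = 0.00032 and 0.00211). Without the pair r was 0.69 (permutation adjusted p = 0.00072), being 0.84 in the prefix-2010 set and 0.12 in the prefix-2009 set. CACNG2 had r = 0.44 and rho = 0.57 with the granule score (permutation adjusted p = 0.0697 and 0.00521), and r = 0.60 without the pair (permutation adjusted p = 0.00256).

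**Figure D4:**
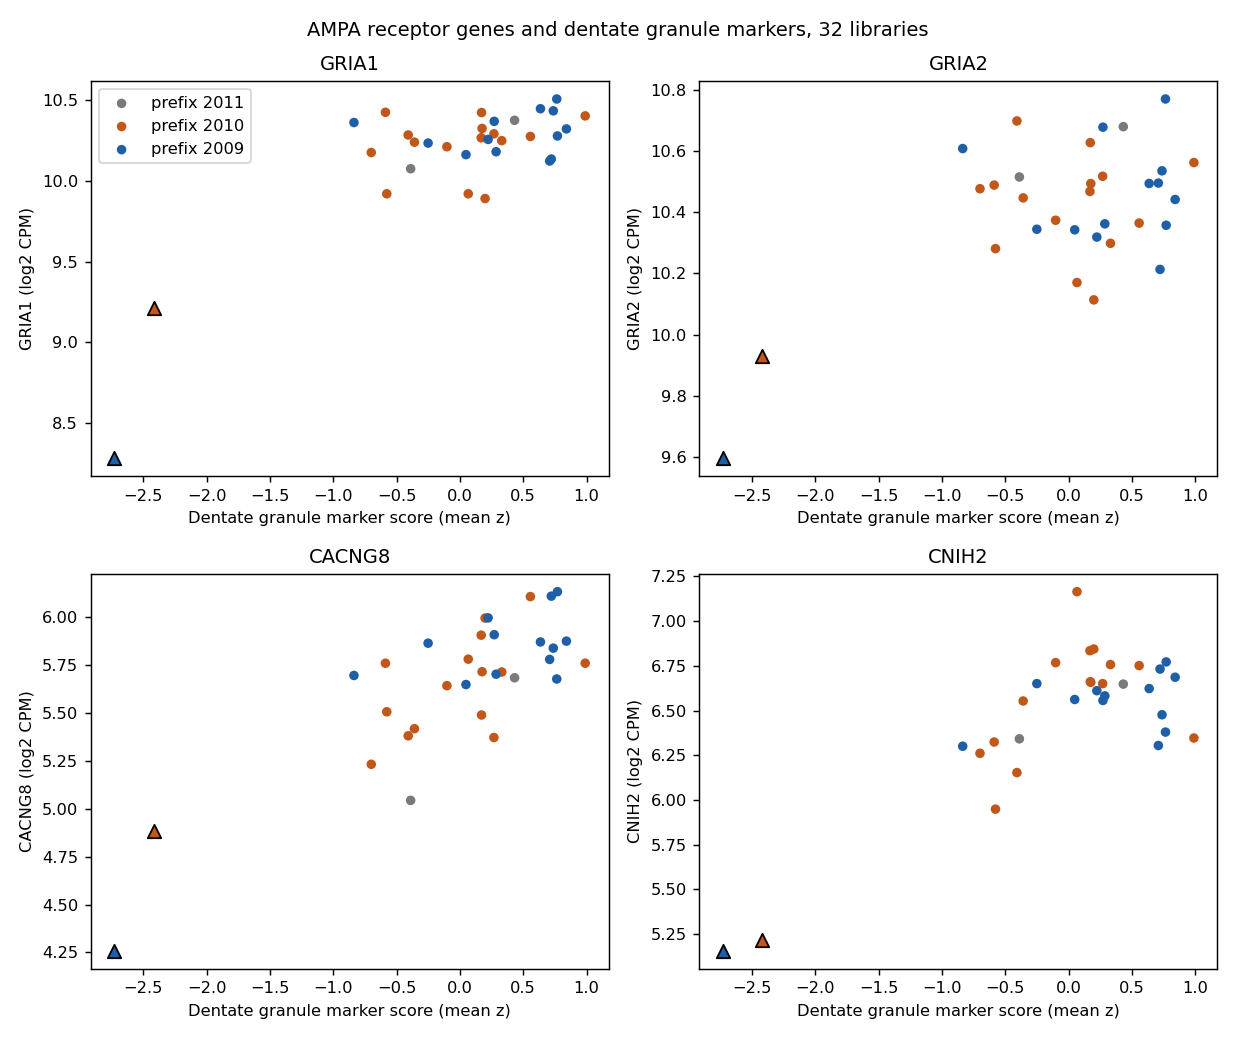
Log2 CPM of GRIA1, GRIA2, CACNG8 and CNIH2 (vertical axes) against the dentate granule marker score (mean z, horizontal axes), 1 point per library, coloured by title prefix, with triangles for library 2 of the prefix-2010 set and library 1 of the prefix-2009 set. Scores of the triangles are -2.42 and -2.73, and among the other points GRIA1 shows little slope (r = 0.29) while CACNG8 rises (r = 0.57).

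GRIA4 followed markers of inhibitory neurons and of oligodendrocyte precursors. With the inhibitory score, which includes GAD1 and PVALB, r was 0.63 and rho 0.52 (permutation adjusted p = 0.00117 and 0.0147), and r was 0.63 without the pair and 0.56 without the 2 libraries farthest in score. With the precursor score r was 0.60 and rho 0.57 (permutation adjusted p = 0.00125 and 0.00521), with 0.68 without the pair and 0.42 without the 2 farthest libraries. Within the prefix-2010 set r was 0.16 for the inhibitory and 0.19 for the precursor score, and within the prefix-2009 set 0.83 and 0.74. Without the pair these were 0.11 and 0.39 in the prefix-2010 set and 0.88 and 0.68 in the prefix-2009 set. Whether r differed between the prefixes was not tested. GRIA4 also rose with the astrocyte score, with r = 0.51 and rho = 0.51 (permutation adjusted p = 0.0134 and 0.0166). That r was 0.37 within the prefix-2010 set and 0.79 within the prefix-2009 set. Without the pair it was 0.40 and did not pass (permutation adjusted p = 0.109), with 0.33 in the prefix-2010 set and 0.70 in the prefix-2009 set. With the granule score GRIA4 had r = -0.63, which was -0.45 without the pair (permutation adjusted p = 0.0539).

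GRIA1 and GRIA2 were lower in libraries with more astrocyte and microglia marker RNA. With the astrocyte score GRIA1 had r = -0.55 and rho = -0.66 (permutation adjusted p = 0.00208 and 0.00211) and GRIA2 r = -0.61 and rho = -0.52 (permutation adjusted p = 0.00148 and 0.0166). Without the pair these were -0.62 and -0.54 and passed. With the microglia score GRIA1 had r = -0.50 and rho = -0.64 (permutation adjusted p = 0.0194 and 0.00256) and GRIA2 r = -0.59 and rho = -0.61 (permutation adjusted p = 0.00269 and 0.00396), and without the pair -0.63 and -0.61. Within the prefix-2010 set the microglia r was -0.30 for GRIA1 and -0.48 for GRIA2, and within the prefix-2009 set -0.67 and -0.81. Without the pair it was -0.69 for both genes in the prefix-2010 set and -0.51 for GRIA1 and -0.70 for GRIA2 in the prefix-2009 set. With the pair in, the astrocyte r was -0.52 for GRIA1 and -0.54 for GRIA2 within the prefix-2010 set, and -0.62 and -0.68 within the prefix-2009 set. Without the pair these were -0.65 and -0.54 in the prefix-2010 set and -0.56 and -0.51 in the prefix-2009 set. Leaving out the 2 libraries farthest in microglia score gave -0.28 for GRIA1 and -0.42 for GRIA2. The share of reads in no gene feature moved with these genes as well: r was -0.62 for GRIA1 and -0.66 for GRIA2 (permutation adjusted p = 0.00128 and 0.00064 over 8 relations), with -0.36 and -0.41 within the prefix-2010 set, -0.80 and -0.83 within the prefix-2009 set, and without the pair -0.44 and -0.49 (permutation adjusted p = 0.0576 and 0.0442). GRIA4 had r = 0.45 and CNIH2 -0.42 with that share (permutation adjusted p = 0.0277 and 0.0336), which were 0.25 and -0.08 without the pair. The part of these reads in the relations was not tested.

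CACNG3 ran against 4 scores and, without the pair, with that of hippocampal excitatory neurons. It had r = -0.71 and rho = -0.71 with immature neurons (permutation adjusted p = 0.000384 and 0.00048), the relation already seen as its slope. With mural cells and fibroblasts, whose markers include PDGFRB and COL1A1, r was -0.73 and rho -0.78 (permutation adjusted p = 0.00032 and 0.00048), with oligodendrocyte precursors -0.65 and -0.64, and with endothelial cells -0.59 and -0.59. Each passed without the pair, at -0.72, -0.73, -0.66 and -0.63. Within the prefix-2010 set the r for immature neurons was -0.48, for mural cells -0.56, for precursors -0.24 and for endothelial cells -0.35, and within the prefix-2009 set they were -0.61, -0.64, -0.68 and -0.63. Without the pair these were -0.42, -0.54, -0.14 and -0.26 in the prefix-2010 set and -0.74, -0.64, -0.72 and -0.73 in the prefix-2009 set. These scores differ between the prefixes as well, so the pooled r mixes differences between and within prefixes. With the excitatory neuron score CACNG3 had r = 0.28 and rho = 0.50 over all libraries (permutation adjusted p = 0.231 and 0.0251). Without the pair r was 0.63 (permutation adjusted p = 0.00202), with 0.77 in the prefix-2010 set and 0.55 in the prefix-2009 set. The part of these cells in the CACNG3 values was not tested. CNIH2 also had r = -0.58 and rho = -0.58 with the choroid plexus score (permutation adjusted p = 0.0102 and 0.00521), and -0.67 without the pair, a score that rests on 2 of 6 markers.

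**Figure D5:**
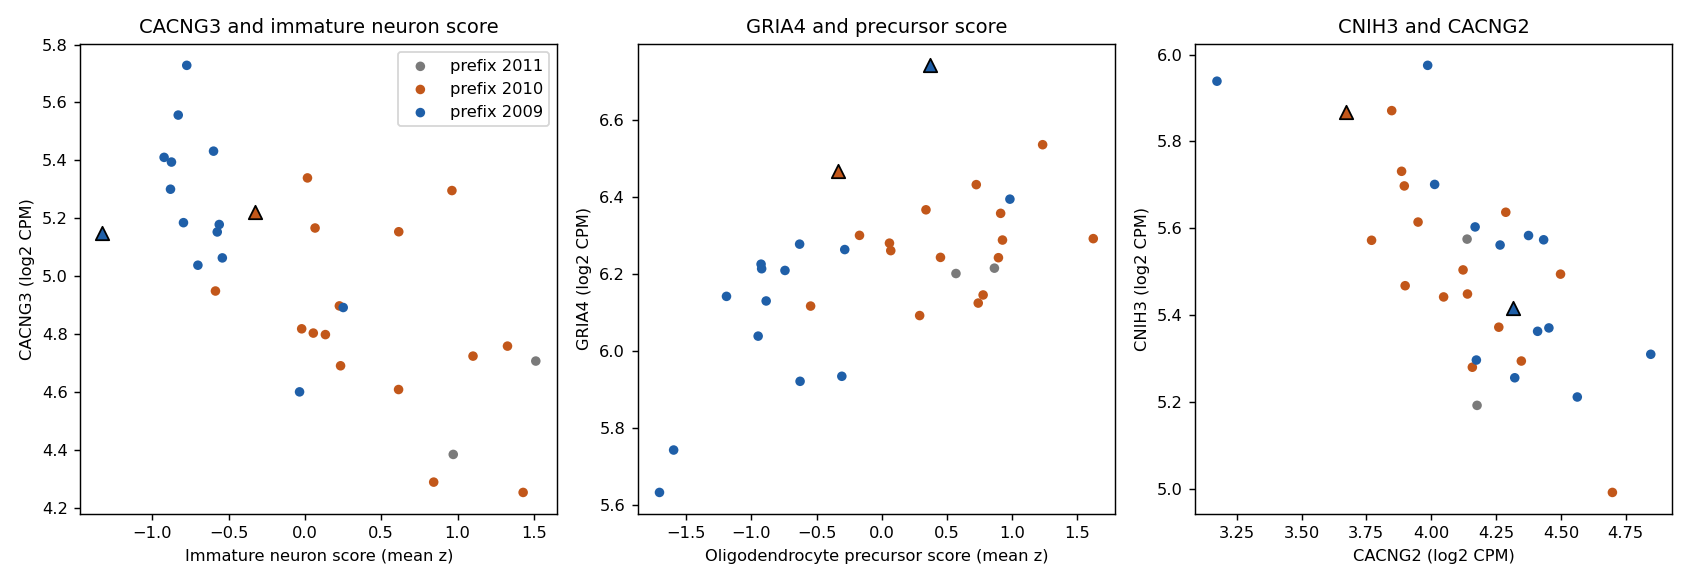
Log2 CPM of CACNG3 against the immature neuron score (left), of GRIA4 against the oligodendrocyte precursor score (middle) and of CNIH3 against CACNG2 (right), 1 point per library, coloured by title prefix, with triangles for the pair of libraries low in granule markers. CACNG3 falls along its score (r = -0.71), GRIA4 rises along its score (r = 0.60, with 0.19 in the prefix-2010 set and 0.74 in the prefix-2009 set, and 0.39 and 0.68 there without the pair), and CNIH3 falls with CACNG2 in both prefixes (r = -0.78 in the prefix-2010 set, -0.75 in the prefix-2009 set).

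The genes also differed in how much they varied between libraries beyond counting noise. The biological coefficient of variation estimated by edgeR was 0.241 for GRIA1, 0.2496 for CNIH2, 0.234 for CACNG8 and 0.236 for CACNG3, against a median of 0.157 over 19959 genes. Without the pair of libraries it was 0.113 for GRIA1, 0.162 for CNIH2 and 0.168 for CACNG8, but 0.240 for CACNG3. CACNG2 had 0.207, GRIA2 0.157, CNIH3 0.155 and GRIA4 0.144 over all libraries. The median over all genes without the pair was 0.145, so GRIA1 lay below it and CACNG3 above it.

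The genes most like each GRIA gene, by Pearson's r of log2 CPM over the 32 libraries among 12327 genes with a mean of at least 5 CPM, were also listed. For GRIA1 these were NELL2 (r = 0.95), PAQR9 (0.95) and CAMKV (0.95), and without the pair NELL2 (0.87), RAB6A (0.86) and ANKRD46 (0.84). NELL2, a secreted protein of neurons, was thus first on both lists. For GRIA2 they were NDFIP1 (0.93), SUB1 (0.93) and KBTBD2 (0.93), and without the pair TRIM23 (0.89), FEM1B (0.89) and NUDT21 (0.87). For GRIA4 they were LUZP2 (0.82), WWC2 (0.82) and SEPT10 (0.81), and without the pair SEPT10 (0.80), ERBB4 (0.77), a receptor of interneurons, and CCDC13 (0.77). These are descriptions of likeness in level across libraries.

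Read assignment limits a few of these values. In the RefSeq gene table GRIA4 overlapped 1 other gene, CACNG3 overlapped 1 and CNIH3 overlapped 2, and the other 5 overlapped none. The sources used here do not say whether counting used strand, so reads of those overlapping genes and of GRIA4, CACNG3 and CNIH3 may not be told apart.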

How the data were processed

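Per the labels' protocols, total hippocampal RNA was depleted of ribosomal RNA and made into strand-preserving libraries. The authors deposited raw counts of reads per gene, made with STAR and HTSeq per the submitters' processing notes. The sources used here do not give their versions, the genome build, the annotation or the strand setting. The 5 rows that name no gene entered neither library sizes nor tests, and reads in no feature were 51.3% to 67.1% of reads. Libraries were scaled by TMM, and genes were filtered with filterByExpr (minimum count 10, total 15, proportion 0.7) and tested by the quasi-likelihood test of edgeR 4.0.16 in R 4.3.3 with Benjamini-Hochberg adjustment over all genes tested and a threshold of 0.05. The prefix fits used all 32 libraries. DESeq2 1.42.0, other scalings, no filter, covariates and leaving out libraries were alternatives. Scores, shares and correlations used log2 CPM (prior count 2) or counts, with permutation tests of 100000 resamples or exact ones below 10 libraries, in Python 3.11.15 with NumPy 2.4.6.

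The genes, the 4 pathway lists and the marker lists were chosen with earlier results of these data known, and 1 gene of the clustering list is not reported here and enters none of its counts. Leaving out the pair low in granule markers, the 28 gene pairs, the marker scores and the reads in no feature were added after seeing the data. Named genes were all measured AMPA receptor genes, up to 4 passing genes per pathway list and direction, the 3 genes most like each GRIA gene, and examples of marker lists. Row names were symbols, and 825 rows named by gene number took the symbol of a RefSeq gene table (assembly mChlSab1.0.hap1). No 2 of the 496 library pairs agreed within counting noise (chi-square per degree of freedom at least 4.38).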

Additional observations from a re-analysis of the deposited data

Results flagged for a closer look

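Of 24 groups of values tested for a single distant library (8 CPM values and 4 shares, each in the 9 high-number and the 7 low-number libraries of the prefix-2010 set), 4 were flagged, and chance flags about 1 in 20 groups. All 4 were library 2 of the prefix-2010 set among the low numbers. CACNG8 had 28.9 CPM there, and the nearest other library of the 7 had 52.02 CPM. GRIA2 made up 58.8% of the GRIA counts, with 52.1% in the nearest. CACNG8 made up 37.1% of CACNG2, CACNG3 and CACNG8 counts, with 47.3% in the nearest. CNIH3 made up 61.1% of the cornichon counts, with 32.98% in the nearest. The same library had 159 CPM of dentate granule markers and 969 CPM of striatum and thalamus markers, and their part in these values was not tested.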

How the results depend on the processing

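Without the pair low in granule markers, 2106 genes were called among low numbers of the prefix-2010 set against the prefix-2009 set (1328 with it) and 102 in high against low numbers of the prefix-2010 set, where library size alone gave 4 and DESeq2 109. On the immature neuron score 2100 genes were called with the prefix in the model (6398 without), with 0 of the 8 AMPA receptor genes then and 2 of them without the pair. On the mature myelin score the calls (1053) were 1782 with the share of reads in no feature as a covariate, 560 with the prefix, 325 with the other score and 415 without the 2 libraries farthest in score. GRIA2 with GRIA4 had r = -0.34 without the pair. Between prefixes the ADAR call was lost with library size alone (edgeR adjusted p = 0.0535), and among low numbers NSF was lost with no count filter and with the reads in no feature as a covariate (0.0557 and 0.0658). On the immature score, CACNG4, SHISA7, GRIP2 and RAB11A were lost with the other score as a covariate and without the 2 farthest libraries, NLGN1 with the other score, and RAB11A and LRRTM2 without the pair. The cause of these changes was not tested.

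Leaving out 1 library at a time gave 1 to 2 AMPA receptor genes in the prefix-2010 set against the prefix-2009 set, the second being GRIA4 without library 1 of the prefix-2009 set, 504 to 2579 genes among low numbers, 0 to 19 in high against low numbers, 562 to 1501 on the myelin score and 0 to 3 in the difference of slopes. CACNG3 passed between prefixes and on the immature score under each scaling, DESeq2 and each library left out, and no share passed under any alternative run. Values that did not pass changed sign 80 times, 55 of them with 1 library left out, none larger than 0.19 in log2. No scaling moved the median of all genes by more than 0.04 in log2. No paired analysis was possible because replicate numbers follow deposition order and only name libraries. Depth limits CACNG2 most, with 140 reads in its lowest library.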

Other observations

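In both libraries low in granule markers, other pathway genes also lay outside the range of the other 30, as values with no test. Of 42 genes of the 4 pathway lists, 7 were below that range in both libraries and 2 were above it. The share of all genes outside that range was not computed, so these counts cannot be read as a trait of the pathway. SHISA6, an auxiliary subunit, had 49.2 CPM in library 2 of the prefix-2010 set and 71.6 CPM in library 1 of the prefix-2009 set, against 127 to 323 CPM in the other 30. NPTX1, a secreted pentraxin that clusters AMPA receptors, had 126 CPM in library 2 of the prefix-2010 set and 138 CPM in library 1 of the prefix-2009 set, against 236 to 1098 CPM. The remaining 5 below the range were ABHD6, NSF, LRRTM1, LRRTM2 and NLGN1. SHISA9, a further auxiliary subunit, had 30.7 CPM in library 2 of the prefix-2010 set and 40.0 CPM in library 1 of the prefix-2009 set, against 13.5 to 28.3 CPM. The scaffold DLG1 had 236 CPM in library 2 of the prefix-2010 set and 212 CPM in library 1 of the prefix-2009 set, against 99.5 to 191 CPM. SHISA6 and SHISA9, relatives in 1 gene family, thus lay on opposite sides of that range in both libraries.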
